A study of Homo sapiens with 8 samples.

Results

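The clustered protocadherin genes lie in tandem in band 5q31.3 of human chromosome 5. Their chromatin was described here through H3K4me2, the dimethylated form of lysine 4 of histone H3, between positions 140160000 and 140900000 of the hg19 build. Peaks of the mark were taken by position alone: the alpha genes from 140160000 to 140400000, the beta genes from 140430000 to 140630000, and the gamma genes from 140710000 to 140900000. Library peaks sharing 1 bp or more were joined into regions, and 29 of the 58952 regions of chromosomes 1 to 22 and X touched the cluster. Of these, 14 touched the alpha interval, 7 the beta interval and 6 the gamma interval, 1 lay between alpha and beta and 1 between beta and gamma. They are numbered 1 to 29 along the chromosome.

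The mark was measured by chromatin immunoprecipitation and sequencing in RD, an established human rhabdomyosarcoma line, a tumour of muscle-like cells. RD cells were transfected with an siRNA against LSD1 (siLSD1) or a control siRNA (siCtrl), received fresh medium after 8 hours and were harvested at 96 hours, with 2 replicates each. The submitters call the replicates biological. Both groups share the same line, transfection and time, LSD1 was targeted by a single siRNA construct, and loss of the protein was not measured in these data. The deposited lists hold peak positions and the authors' own score, no read counts, so depth is unknown.

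Clustered protocadherins are cell-surface adhesion molecules that neurons use to tell their own branches from those of other cells. Each variable alpha or gamma exon has its own promoter and is spliced to constant exons shared within its group, while each beta gene is a single exon of its own. Neurons choose among the variable promoters largely at random, with CTCF and cohesin joining the chosen promoter to a distant enhancer, whereas the C-type genes at the ends of the alpha and gamma arrays are expressed more uniformly. H3K4me2 marks active and poised promoters and enhancers, and LSD1, encoded by KDM1A, is an enzyme that takes methyl groups off it.

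Many variable promoters of the cluster share a short element with a CGCT core, and promoter entries were searched here for short words with that core. Whether a match is that element was not tested. RefSeq (GRCh38.p14) promoter entries, 250 bases before to 50 after a gene's start, were found for 47 of 53 listed genes. PCDHA3, PCDHA13, PCDHB6, PCDHB11, PCDHGA12 and PCDHGC5 had no entry. The 8 sequences below were selected for holding CGCTG on the gene's own strand. They come from the first such gene of alpha, beta, gamma A and gamma B, and from each C-type gene with an entry. Where an entry held CGCTGT, that match was the one shown. Some entries, such as those of PCDHA4 and PCDHB1, lacked CGCTG on the gene strand. Another CGCTG in the PCDHGC3 sequence is left in lower case. Each sequence has 57 bases, 5′ to 3′ on the plus strand, with the 5 bases CGCTG of the shown match in capitals. In GRCh38.p14 coordinates they stand at chr5:140786076-140786132 (PCDHA1), chr5:140926259-140926315 (PCDHAC1), chr5:140966355-140966411 (PCDHAC2), chr5:141094534-141094590 (PCDHB2), chr5:141330393-141330449 (PCDHGA1), chr5:141350015-141350071 (PCDHGB1), chr5:141475870-141475926 (PCDHGC3) and chr5:141484942-141484998 (PCDHGC4). These coordinates cannot be set against the hg19 peaks, so no peak is assigned to a single gene.
PCDHA1: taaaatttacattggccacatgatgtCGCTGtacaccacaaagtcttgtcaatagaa
PCDHAC1: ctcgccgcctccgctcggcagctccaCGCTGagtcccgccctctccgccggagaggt
PCDHAC2: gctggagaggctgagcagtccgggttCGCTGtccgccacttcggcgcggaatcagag
PCDHB2: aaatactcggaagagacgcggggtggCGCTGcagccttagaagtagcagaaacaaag
PCDHGA1: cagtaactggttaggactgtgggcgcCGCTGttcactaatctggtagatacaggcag
PCDHGB1: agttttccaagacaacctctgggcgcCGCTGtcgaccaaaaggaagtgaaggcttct
PCDHGC3: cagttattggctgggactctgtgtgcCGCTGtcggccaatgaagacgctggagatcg
PCDHGC4: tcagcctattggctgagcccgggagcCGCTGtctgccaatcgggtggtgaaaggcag

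The families differed in which words with this core their promoter entries held. CGCT, searched on both strands, was present in 51 of 52 cluster promoter entries (98.1%) against 70.0% of all 35116 promoters. The longer words below contain it and were picked after the sequences had been seen. CGCTG occurred in 46 entries (88.5% against 48.0% of all promoters), and CGCTGT in 29 (55.8% against 11.2%). The 11 gamma B entries come from 7 genes and the 5 C-type entries from 4, with overlapping windows, so some genes count more than once. CGCTGT stood in 10 of 11 gamma A entries, 8 of 11 gamma B entries, 4 of 5 C-type entries and 6 of 11 alpha entries, but in 1 of 14 beta entries. The beta genes instead held GGTGGCGCTG, which is CGCTG with the 5 bases before it in the PCDHB2 promoter, present in 12 of 14 beta entries, in 0 entries of the other families and in 0.276% of all promoters. A match says only that the letters are present in that window.

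CpG content varied between the families, and the ranges of gamma B and the C-type genes overlapped. The median number of CG dinucleotides per promoter entry was 7 for alpha (range 3 to 9), 7.5 for beta (5 to 12), 5 for gamma A (2 to 12), 13 for gamma B (7 to 25) and 23 for the C-type genes PCDHAC1, PCDHAC2, PCDHGC3 and PCDHGC4 (15 to 27). Over all promoters the median was 14. In the RefSeq gene order the C-type genes close the alpha and the gamma arrays, SLC25A2 and TAF7 stand between beta and gamma, and DIAPH1, a formin that nucleates actin, follows the gamma array together with HDAC3, a histone deacetylase.

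Peaks were spread over all 3 arrays, and the library lists differed in how many they held. Of the 33878 and 44831 peaks of siCtrl replicates 1 and 2, 16 and 28 touched the cluster. Of the 50587 and 49611 peaks of siLSD1 replicates 1 and 2, 23 and 23 did. The shortest list, that of siCtrl replicate 1, also held the fewest peaks here. The authors' pooled lists held 27 of 45219 peaks (siCtrl) and 26 of 56860 (siLSD1) in the cluster.

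Marked sequence made up 4.31% and 6.30% of the cluster in the siCtrl libraries and 5.88% and 6.63% in the siLSD1 libraries. The gamma interval was the most densely covered, at 7.67%, 9.33%, 9.88% and 10.9% in the same order of libraries. The alpha interval followed at 3.0%, 5.99%, 5.49% and 6.89%, and the beta interval at 3.39%, 4.59%, 3.52% and 3.39%. Beta coverage exceeded alpha coverage in siCtrl replicate 1. Whole-genome coverage was 2.31%, 3.10%, 3.19% and 3.44%, and that of chromosome 5 was 1.41%, 2.15%, 2.05% and 2.37%.

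The 200 kb on each side were more densely marked than the cluster itself. The mean over 4 libraries was 5.78 ± 1.03% (SD, n = 4) in the cluster and 9.13 ± 1.71% (SD, n = 4) in the flanks, a difference of -3.35 ± 0.768 percentage points with the same sign in 4 of 4 libraries. The exact two-sided paired permutation p was 0.125, the smallest 4 libraries allow, and 0.175 after Benjamini-Hochberg adjustment over 7 comparisons. Against the flanks alpha differed by -3.79 ± 0.565 and beta by -5.41 ± 1.46 points, each in 4 of 4 libraries with an exact p of 0.125. Gamma differed from the flanks by 0.327 ± 1.05 points, higher in 3 of 4 libraries, with an exact permutation p of 0.625. Gamma exceeded alpha by 4.11 ± 0.575 points and beta by 5.74 ± 1.502 points in 4 of 4 libraries (exact permutation p = 0.125 for each, adjusted 0.175), and alpha exceeded beta by 1.62 ± 1.61 points in 3 of 4 (exact permutation p = 0.25, adjusted 0.292).

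**Figure D1:**
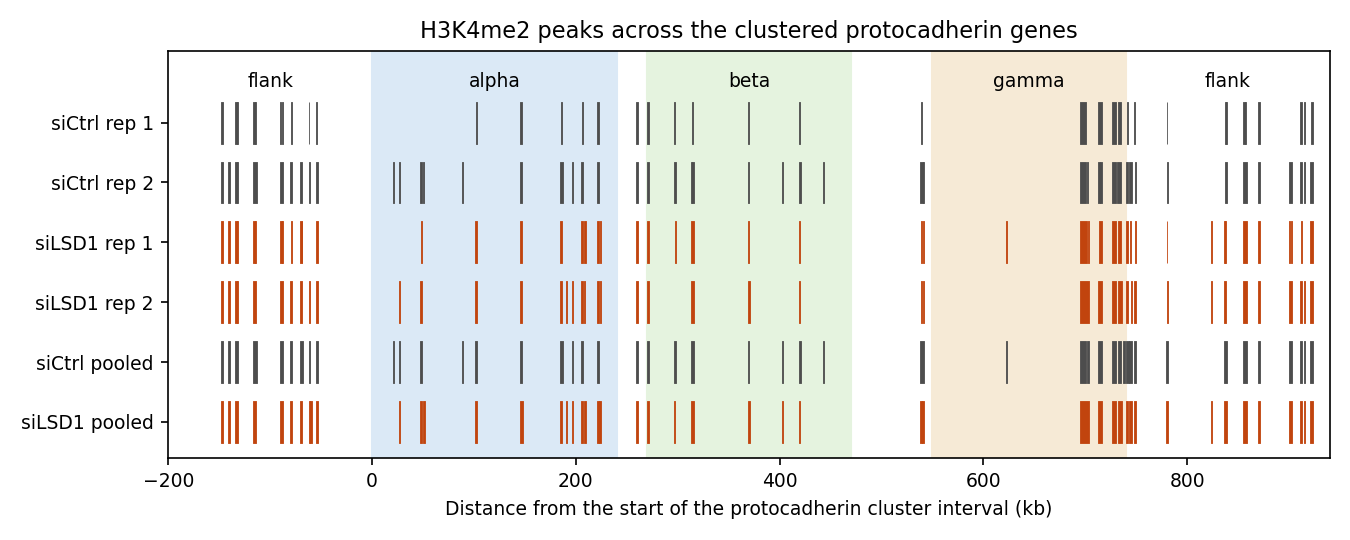
Peaks of the 4 libraries and 2 pooled lists (rows) across the cluster and its flanks, against distance in kb along the chromosome; shading marks the alpha, beta and gamma intervals and a thin outline keeps narrow peaks visible. Peaks crowd at the far ends of the alpha and gamma intervals, and the first part of the gamma interval is nearly bare.

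**Figure D2:**
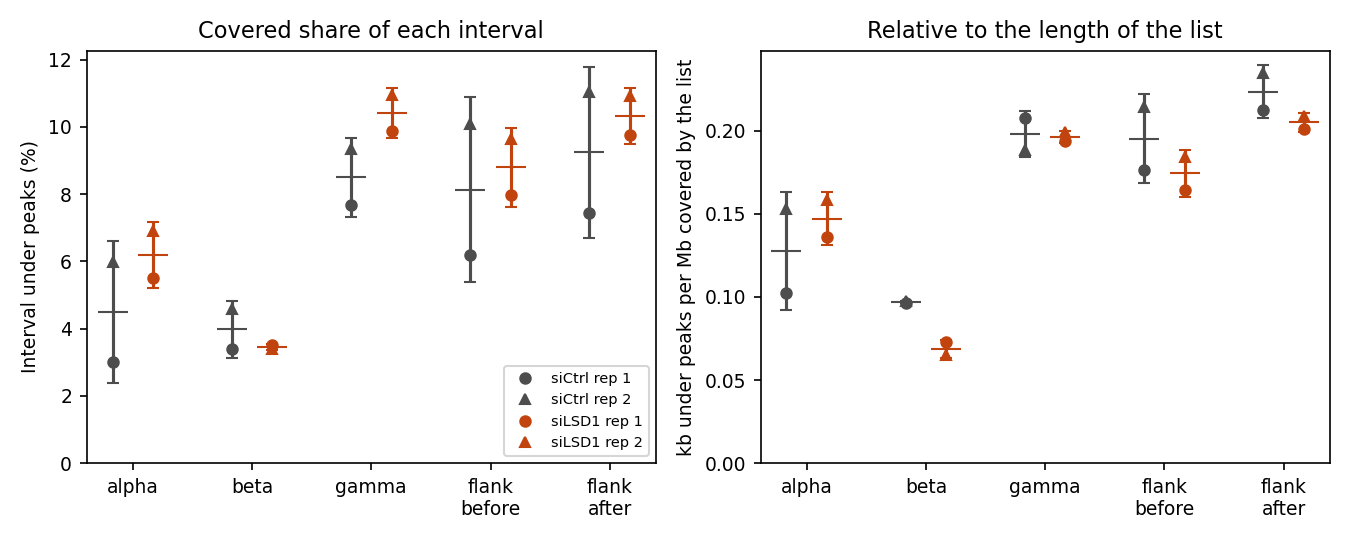
Percent of each interval and flank under peaks (left) and kb under peaks per Mb that the whole list covers (right), with 1 symbol per library and the mean and SD of each siRNA (n = 2) as a line and bar. On the left the gamma interval lies between 7.67% and 10.9%, above alpha and beta in each library. On the right the beta interval and the flank after gamma are each lower in both siLSD1 than in both siCtrl libraries.

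Coverage was uneven within the arrays, and this split of the gamma interval was drawn after the peaks had been seen. The first 144.546 kb of the gamma interval, from 140710001 to 140854546, held 0, 0, 0.643 and 0 kb under peaks in siCtrl replicates 1 and 2 and siLSD1 replicates 1 and 2. The last 45.454 kb were 32.1%, 39.0%, 39.9% and 45.7% covered and held 45.7%, 38.0%, 41.7% and 42.3% of all marked sequence of the cluster. The 4 longest stretches with no peak in any library included 94.8 kb (140603373 to 140698182), from the end of the beta interval to the region before gamma, and 80.7 kb (140701470 to 140782136) and 71.8 kb (140782780 to 140854546) within and just before gamma. The other, of 73.9 kb (140106751 to 140180630), ran from the flank into the start of the alpha interval. The median gap between neighbouring regions was 15.5 kb in the cluster and 15.6 kb over all regions.

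Of the 29 regions, 15 (51.7%) had a peak in each library, against 45.2% of all regions. A further 3 had a peak in 3 libraries, 4 in 2 libraries and 7 in 1 library. Of the 7, 5 were peaks of siCtrl replicate 2 and 1 each of the siLSD1 replicates. Regions with a peak in all 4 libraries are called common.

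The first 6 regions of the alpha array each lacked a peak in 1 or more libraries. Region 1 (140180631 to 140181407), region 4 (140210450 to 140211004) and region 5 (140248268 to 140249189) had 0.777, 0.555 and 0.922 kb under a peak in siCtrl replicate 2 and none in the other libraries. Region 2 (140186244 to 140187776) had 1.02 kb in siCtrl replicate 2 and 1.53 kb in siLSD1 replicate 2. Region 3 (140207075 to 140208858) had 0, 1.64, 1.26 and 1.44 kb in siCtrl replicates 1 and 2 and siLSD1 replicates 1 and 2. Region 6 (140261395 to 140262666) had 0.946, 0, 1.13 and 1.19 kb. Regions 3 and 6 thus had a peak in 3 of 4 libraries.

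The 4 common regions of the alpha array were regions 7, 8, 11 and 13. Region 7 (140305130 to 140307567) had 2.28, 2.43, 2.40 and 2.36 kb, the most even breadth of the array, with scores at the 55.3, 81.2, 78.7 and 82.2 percentile of each library's own list. Region 8 (140344292 to 140346975) had 1.19, 2.68, 2.37 and 2.13 kb, the lowest value being that of siCtrl replicate 1. Region 11 (140365295 to 140366856) had 1.14, 1.48, 1.42 and 1.56 kb, and region 13 (140380632 to 140382801) had 1.65, 1.88, 1.76 and 2.17 kb. In both, the siCtrl and siLSD1 values overlapped. Region 9 (140350352 to 140351032) had 0.681 kb in siLSD1 replicate 2 alone, and region 10 (140356386 to 140357364) had 0.979 kb in siCtrl replicate 2 and 0.769 kb in siLSD1 replicate 2.

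Only 2 regions, both at the far end of the alpha interval, had a peak in both siLSD1 libraries and in neither siCtrl library. That is 6.90% of the 29 regions, against 6.97% of all regions. Region 12 (140367632 to 140369527) had 1.67 and 1.63 kb in the siLSD1 libraries, with scores of 73.71 and 124.51 at the 16.6 and 34.2 percentile of their lists. Region 14 (140383244 to 140384464) had 1.17 and 1.08 kb, with scores of 108.93 and 100.65 at the 32.4 and 26.6 percentile. Each stood, in a measure taken after their positions had been seen, close beside a common region: region 12 lay 0.775 kb beyond region 11, and region 14 lay 0.442 kb beyond region 13. Over all 4107 such regions of the genome the median distance to a common region was 15.6 kb, and 303 (7.38%) lay within 1 kb. In lists of equal numbers of peaks 0 of 19 cluster regions met this rule (3.29% of all regions), and in the upper 50% of each list by score 0 of 13 (6.33%). Because of their low score ranks, regions 12 and 14 had to lose their call under these cuts, which are no check of it either. With gaps up to 1000 bp merged, both joined their neighbours and 0 of 27 met it (6.82%). No region had a peak in both siCtrl and in neither siLSD1 library (1.04% of all regions), and there were 5 of 29 without siCtrl replicate 1, against 7.05% of all regions, and 1 of 28 without siLSD1 replicate 1, against 2.49%. Leaving out 1 library only loosens this rule, so regions 12 and 14 had to keep their call and this is no check of it. Without siCtrl replicate 2 the count was 4 of 25, against 19.5% of all regions. With equal numbers of peaks region 17 had peaks in both siCtrl libraries only (1 of 19 regions, against 3.42%).

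Between alpha and beta, region 15 (140418909 to 140421187) had 2.004, 2.07, 1.89 and 2.24 kb. At the start of the beta array, region 16 (140429991 to 140431854) had 1.76, 1.72, 1.80 and 1.78 kb, the narrowest spread of any common region in the cluster, with both siLSD1 values just above both siCtrl values. Region 17 (140456410 to 140457855) had 1.12, 1.45, 0.945 and 0 kb, with no peak in siLSD1 replicate 2. Region 18 (140473385 to 140475814) had 1.70, 2.29, 2.15 and 2.11 kb. Region 19 (140528962 to 140530474) had 1.23, 1.07, 1.05 and 1.51 kb, and region 21 (140579063 to 140580578) had 0.968, 1.47, 1.09 and 1.39 kb. The siRNA groups overlapped in regions 18, 19 and 21. Region 20 (140562269 to 140562856) and region 22 (140602782 to 140603372) had 0.588 and 0.591 kb in siCtrl replicate 2 alone.

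Region 23 (140698183 to 140701469), before the gamma array, had 1.36, 3.26, 2.62 and 2.73 kb, lowest in siCtrl replicate 1. Region 24 (140782137 to 140782779) was a 0.643-kb peak of siLSD1 replicate 1 with a score of 50.01, near the lowest of that list. The remaining 5 regions lay in the last 45.454 kb or across the end of the cluster. Region 26 (140872891 to 140876668) had 3.39, 3.14, 2.65 and 3.54 kb, region 27 (140886094 to 140889974) had 3.24, 3.44, 3.49 and 3.70 kb, and region 28 (140891480 to 140895804) had 2.49, 3.84, 3.09 and 3.83 kb. In region 27 both siLSD1 libraries were above both siCtrl libraries, and in regions 26 and 28 the groups overlapped. Region 29 (140899856 to 140902399) crosses the end of the cluster and had 1.03, 2.54, 1.89 and 2.27 kb, and its peak in siCtrl replicate 1 lies wholly beyond the end.

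**Figure D3:**
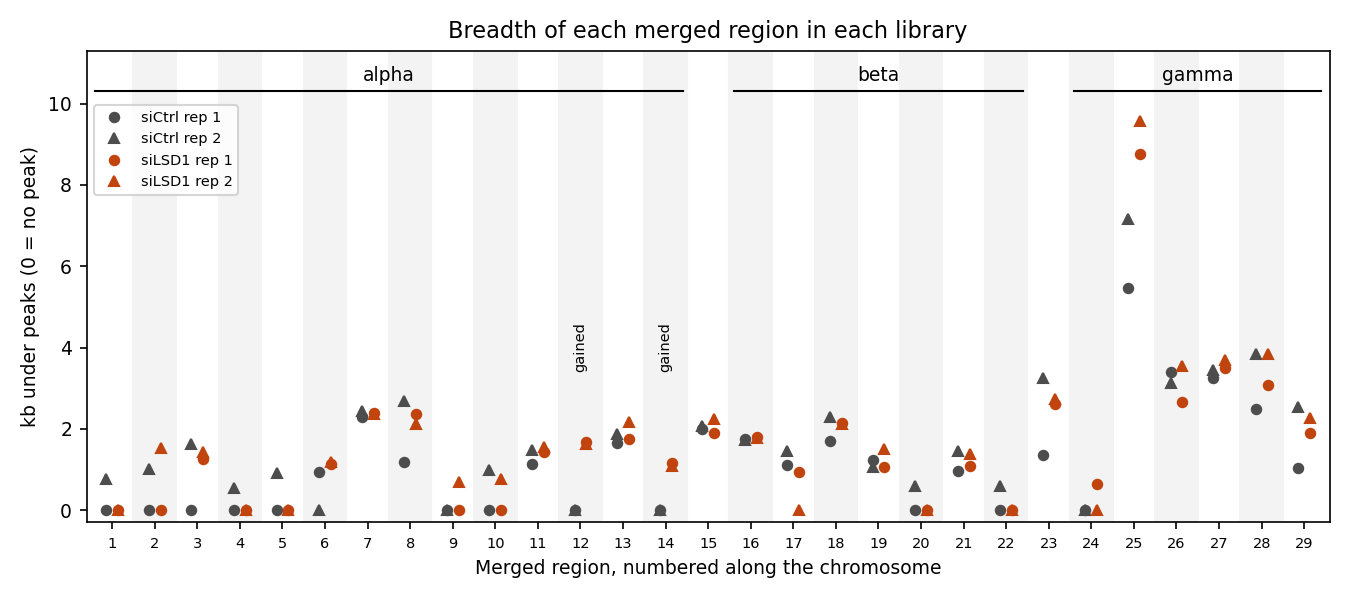
Kilobases under peaks in each of the 29 regions, in order along the chromosome, with 1 symbol per library coloured by siRNA and "gained" marking a peak in both siLSD1 and in neither siCtrl library. Region 25 stands highest, and the siCtrl and siLSD1 points of most other common regions lie among each other.

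Region 25 (140854547 to 140864107) was the broadest of the cluster, with 5.46 and 7.16 kb after siCtrl and 8.77 and 9.56 kb after siLSD1. The siLSD1 libraries both lay above the siCtrl libraries. The group means were 6.31 ± 1.20 and 9.17 ± 0.560 kb (SD, n = 2), a difference of 2.85 kb, and no test was run on a single region. The strongest peak of the region ranked at the 92.4, 98.9, 99.5 and 97.3 percentile of its list. In siCtrl replicate 2 its score was 3100, as in both pooled lists. In the siCtrl replicate 2 list 899 peaks reached or passed that value, and the highest score was 3233.06. How many peaks share exactly 3100 was not counted, so its rank there is not resolved further. siCtrl replicate 1 had 1 peak ending at 140860281. In siCtrl replicate 2 the first peak ended at 140860557 and, after a gap of 1.36 kb, a second peak of 1.20 kb with a score of 53.54 followed to 140863111. In siLSD1 replicate 1 the first peak ended at 140861628, the gap was 0.607 kb and the second peak was 1.82 kb with a score of 61.84, and in siLSD1 replicate 2 a single peak of 9.56 kb reached 140864107. The pooled siCtrl list had 2 peaks 1.20 kb apart, and the pooled siLSD1 list a single peak of 9.56 kb.

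**Figure D4:**
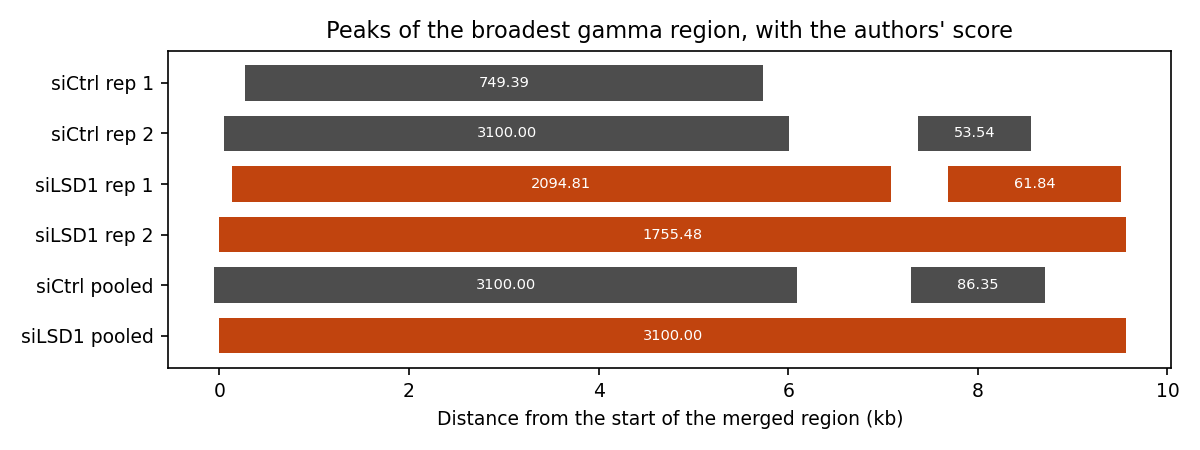
Peaks of region 25 in each list against distance in kb, labelled with the authors' score. The siLSD1 peaks reach farther to the right, and the gap seen in siCtrl replicate 2 is narrower in siLSD1 replicate 1 and absent in siLSD1 replicate 2.

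Over the 15 common regions, 3 were broader in both siLSD1 than in both siCtrl libraries (regions 16, 25 and 27), where 30.3% of all common regions were, and 0 were narrower (against 9.62%). The broader regions numbered 5 of 15 with gaps up to 1000 bp merged (31.4% of all common regions), 13 of 16 without siCtrl replicate 2 (63.1%) and 8 of 15 without siLSD1 replicate 1 (52.9%). The narrower regions numbered 8 of 16 without siCtrl replicate 1 (30.7% of all common regions) and 4 of 16 without siLSD1 replicate 2 (26.03%). The mean of the siLSD1 libraries was the higher in 14 of 15 regions, against 18055 of 26653 common regions of the genome and 7 of 14 of the flanks. The median difference was 0.182 kb in the cluster, 0.126 kb over all common regions and -0.008 kb in the flanks. Without siCtrl replicate 1, the shortest list, some cluster differences fell below 0, such as that of region 8 (-0.435 kb). Others stayed above 0, such as that of region 25 (2.005 kb).

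Between the siRNAs, peaks covered 31.9 kb (replicate 1) and 46.6 kb (replicate 2) of the whole cluster with siCtrl, and 43.5 and 49.1 kb with siLSD1. siCtrl replicate 2 lay above siLSD1 replicate 1, so the groups overlapped. The group means were 39.3 ± 10.38 and 46.3 ± 3.94 kb (SD, n = 2). The difference of 7.03 kb had an exact two-sided permutation p of 0.667, where 2 libraries against 2 cannot go below 0.333. It was -0.312 kb without siCtrl replicate 1. The alpha interval had 10.8 ± 5.07 and 14.9 ± 2.38 kb (SD, n = 2), and the beta interval 7.97 ± 1.69 and 6.90 ± 0.185 kb, with overlapping groups and an exact permutation p of 0.667 for each. The alpha difference of 4.07 kb was 0.486 kb without siCtrl replicate 1, 7.66 kb without siCtrl replicate 2 and 2.39 kb without siLSD1 replicate 2. The beta difference was -1.07 kb, but 0.130 kb without siCtrl replicate 2 and 1.39 kb among the upper 50% of peaks by score. The gamma interval had 16.2 ± 2.22 and 19.8 ± 1.42 kb (SD, n = 2), and here both siLSD1 libraries (18.8 and 20.8 kb) exceeded both siCtrl libraries (14.6 and 17.7 kb), at the smallest exact permutation p of 0.333. The gamma difference of 3.62 kb was 2.05 kb without siCtrl replicate 1.

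The lists differ in length, so covered length was also set against the length that each whole list covers. Gamma then had 0.198 ± 0.0138 kb per Mb of list after siCtrl and 0.196 ± 0.00367 after siLSD1 (SD, n = 2), an exact permutation p of 1. Beta had 0.0970 ± 0.000614 and 0.0687 ± 0.00548 kb per Mb (SD, n = 2), with both siLSD1 libraries (0.0726 and 0.0649) below both siCtrl libraries (0.0966 and 0.0974) and an exact permutation p of 0.333. With equal numbers of peaks the beta difference was -0.0276 kb per Mb. In the upper 50% of peaks by score it was 0.0131 kb per Mb, the opposite sign. Lower values in both siLSD1 libraries were not particular to beta. The flank after gamma had means of 0.224 (siCtrl) and 0.205 (siLSD1) kb per Mb, and the stretch between alpha and beta 0.0253 and 0.0205. Neither had overlapping groups, and the exact permutation p was 0.333 for each. The whole cluster had 0.475 ± 0.0283 and 0.459 ± 0.0148 kb per Mb (SD, n = 2), with overlapping groups and an exact permutation p of 0.667. That difference was -0.0156 kb per Mb, but 0.00441 without siCtrl replicate 2.

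Breadth in 10-kb windows was fitted with limma over 43372 windows of the genome with 0.5 kb or more under peaks in 2 or more libraries. At an adjusted p under 0.05 limma called 0 windows higher and 0 lower, in the cluster and in the genome, and the smallest adjusted p was 0.129 in both. At an unadjusted p under 0.05, 3 of 22 cluster windows were higher and 0 lower, against 12.4% higher and 1.94% lower of all windows. In the windows of the cluster 17 fitted differences were above 0 (72.0% of all windows) and the median was 0.137 kb, against 0.213 kb over all windows. Without siCtrl replicate 1 the cluster median was -0.0720 kb, against 0.0305 kb over all windows. Quantile normalization lowered the median, to -0.204 kb in the cluster and -0.146 kb over all windows. With it, 7 of 22 cluster windows and 17161 of 43372 windows in all were above 0. The window from 140360001 to 140370000, holding regions 11 and 12, had 1.14 and 1.48 kb after siCtrl and 3.09 and 3.19 kb after siLSD1, a limma difference of 1.83 ± 0.201 kb (SE). The window from 140380001 to 140390000, holding regions 13 and 14, had 1.65, 1.88, 2.93 and 3.25 kb (1.32 ± 0.213 kb, SE). The window from 140860001 to 140870000, at the far edge of region 25, had 0.281, 1.76, 3.45 and 4.11 kb (2.76 ± 0.650 kb, SE). Their limma adjusted p was 0.129, 0.129 and 0.197. A window of the flank after gamma, from 140980001 to 140990000, had 0, 0, 1.189 and 1.385 kb (1.287 ± 0.190 kb, SE). Its limma adjusted p was also 0.129.

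**Figure D5:**
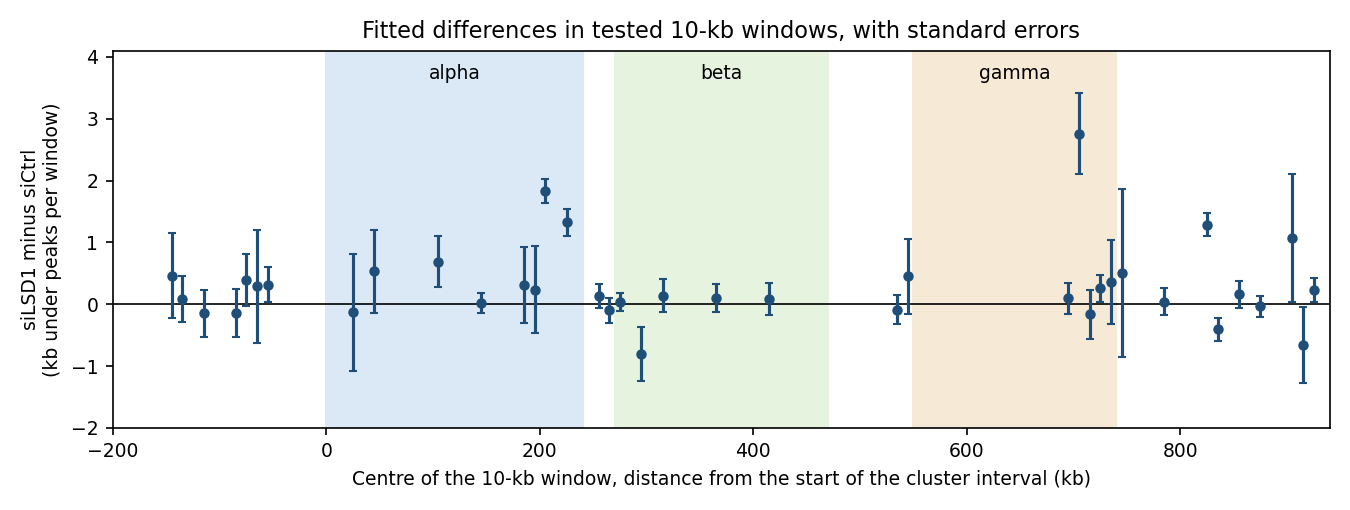
Fitted difference in kb under peaks, siLSD1 minus siCtrl, for the tested 10-kb windows of the cluster and its flanks against distance in kb, with bars for the standard error. The 3 cluster windows with an unadjusted p under 0.05, at regions 12, 14 and 25, are the highest points of the plot. A window of the flank after gamma, at 1.287 kb, lies close below and also had an unadjusted limma p under 0.05.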

How the data were processed

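Per the labels, H3K4me2 was precipitated from RD cells, with 2 libraries per siRNA, and 4 input libraries were not analysed here. Per the submitters' processing notes, reads were aligned with Bowtie to hg19. The peak names carry MACS, with settings and version not given in the sources used here. For each peak, the deposited score is the authors' own value and, from its minimum, resembles a p-value on a negative log10 scale. It was used only to rank peaks within a list. Peaks sharing 1 bp or more were joined into regions, and kilobases under peaks were compared by exact permutation tests over libraries and, in 10-kb windows, with limma 3.58.1 (R 4.3.3, trend and robust options, statmod 1.5.0) with Benjamini-Hochberg adjustment. Merging and the limma fit were run on simulated data. How many of the simulated shifts limma recovered is not given here. All merged regions of the cluster were named, as they numbered 30 or fewer. The members, lists and intervals were chosen with earlier results of these data known. Python 3.11.15 (numpy 2.4.6, pandas 2.3.3, scipy 1.17.1, matplotlib 3.10.9) and circlize 0.4.16 (cytobands) were used. Alternatives were equal numbers of peaks, the upper 50% by score, other overlap, merging, window, flank and scaling choices, a replicate block, and leaving out each library.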

Additional observations from a re-analysis of the deposited data

How the results depend on the processing

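Depth is unknown and the groups hold 2 libraries each. An exact permutation p only ranks a difference among relabellings or sign changes of these libraries. The limma p uses variances moderated over all tested windows. Both rest on these libraries alone. Leaving out each library in turn gave siLSD1 minus siCtrl differences in covered length of -0.312 to 14.4 kb (cluster), 0.486 to 7.66 kb (alpha), -2.27 to 0.130 kb (beta), 2.05 to 5.20 kb (gamma), -2.55 to 5.22 kb (flank before alpha) and -1.43 to 5.76 kb (flank after gamma). In kb per Mb of list they ran from -0.0356 to 0.00441 (cluster), -0.00551 to 0.0445 (alpha), -0.0321 to -0.0244 (beta) and -0.0115 to 0.00805 (gamma). The beta groups did not overlap in this measure, so leaving out a library could not change the sign there. In peaks the differences ran from -5 to 7 (cluster), -0.5 to 4.5 (alpha), -3.5 to -0.5 (beta) and -1 to 2 (gamma). Regions found only after siLSD1 numbered 3 to 4 (7.90% to 19.5% of all regions) and only after siCtrl 0 to 5 (2.49% to 7.05%). Common regions broader after siLSD1 numbered 3 to 13 (37.8% to 63.1% of all common regions) and narrower 0 to 8 (14.1% to 30.7%), and the median window difference ran from -0.0720 to 0.271 kb. In the upper 50% by score, the beta difference was 1.39 kb, the kb per Mb differences were 0.00945 (cluster), -0.0124 (alpha), 0.0131 (beta) and 0.0208 (gamma), peak differences were 0 (alpha) and 0.5 (beta), 0 regions were found only after siLSD1 (6.33% of all regions), and 7 regions were common. With equal numbers of peaks, the kb per Mb differences were 0.0144 (cluster), 0.0112 (alpha), -0.0276 (beta) and 0.0292 (gamma). The peak difference of the cluster was then 0, and 0 regions were exclusive to siLSD1 (3.29% of all regions) and 1 to siCtrl (3.42%). Merging gaps gave 0 regions found only after siLSD1 (6.82% of all regions) and 5 broader ones (31.4% of all common regions). Assigning peaks by midpoint gave a gamma peak difference of 0, and quantile normalization a median window difference of -0.204 kb in the cluster and -0.146 kb over all windows. The settings given singly here are mainly those in which a sign or a count changed. The cause of these changes was not tested. The limma fit called 1179 windows higher and 126 lower genome-wide in the upper 50% by score, and 5 and 4 with quantile normalization, against 0 and 0 as reported, and 0 in the cluster in each of these.

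With the replicate number as a block, the cluster difference stayed at 7.03 kb with an exact permutation p of 0.5, the smallest within replicate numbers, and limma called 0 cluster windows (smallest adjusted p 0.176). Same-numbered libraries deviated together only weakly (r = 0.124 over 57558 windows, across windows and not independent samples), and with 2 pairs the numbers are not taken to pair the samples.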

Other observations

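The pooled lists held peaks in the cluster that the other pooled list lacked. The pooled siLSD1 list had 4 such peaks of 26 (15.4%, against 27.0% of its 56860 peaks), and the pooled siCtrl list had 5 of 27 (18.5%, against 8.86% of its 45219 peaks). One peak found only in the pooled siLSD1 list, at 140210417 to 140211551, overlapped a peak of siCtrl replicate 2 and of no other library. One found only in the pooled siCtrl list, at 140782277 to 140782962, overlapped a peak of siLSD1 replicate 1 and of no other library. Another, at 140897466 to 140898902 in the gamma interval, overlapped no library peak and had a score of 73.32.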
